A study of Mus musculus with 12 samples.

Results

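The costimulatory part of the tumour necrosis factor (TNF) receptor family was followed in 10 genes across the 6 groups of sorted mouse T cells: 8 receptors around OX40 (Tnfrsf4, Tnfrsf18, Tnfrsf9, Tnfrsf8, Tnfrsf1b, Tnfrsf1a, Tnfrsf25 and Cd27) and 2 ligands (Tnfsf4 and Tnfsf11). They were chosen by symbol, and all 10 were found among the 22180 genes tested, each on 1 row of the array that names a single gene. The question was which of them respond to OX40L-JAG1 and which to antibodies against CD3 and CD28.

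Receptors of this family sit on the cell surface and are engaged by trimeric ligands of the TNF family. OX40, GITR, CD137, CD30, TNFR2 and CD27 recruit TRAF adaptors and can signal to NF-kappaB, and several of them are known as costimulatory receptors that T cells raise after activation. TNFR1 and DR3 also carry a death domain. Regulatory T cells (Treg cells, marked by the transcription factor Foxp3) are known for high OX40 and GITR, and conventional CD4+ T cells are called effector (Teff) cells here.

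All cells were splenic CD4+ T cells of 8-week-old mice of the C57BL/6-Foxp3.GFP strain, in which a GFP reporter marks Foxp3+ cells. Control cells were sorted fresh into Foxp3+ Treg and Foxp3- Teff cells. The other cells were first kept for 3 days as mixed CD4+ cultures. The a-CD3-CD28 groups received antibodies to CD3 and CD28 at 2 µg/ml of each, which engage the T cell receptor complex and its costimulator. The OX40L-JAG1 groups received soluble OX40L, the ligand of OX40, at 5 µg/ml and soluble JAG1, a Notch ligand, at 1 µg/ml, without antibody. Fresh cells are the only control. In any comparison with them, treatment and time in culture cannot be told apart, and OX40L and JAG1 were given together, so neither can be told apart from the other. Each group has 2 arrays, called replicate 1 and replicate B. No label says whether they are separate mice or cultures, so a p-value covers the spread between these arrays alone, possibly technical, and the number of arrays limits the precision.

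Levels are log2 intensities made with RMA, and are compared between groups for a gene, never between genes. A difference of 1 is a change of 2-fold. Each difference is given with its standard error (SE) from limma and a Benjamini-Hochberg adjusted p over all 22180 genes, and a gene is said to have risen or fallen where that p is under 0.05. Beside counts of such genes, the background is the percentage of all 22180 genes that passed in the same comparison, direction and fit. It was taken at the adjusted p alone, so counts before adjustment have no background of their own.

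The label of each group was checked with Foxp3. It lay between 10.36 and 11.22 on the 6 Treg arrays and between 5.58 and 6.81 on the 6 Teff arrays. The highest Teff arrays were the OX40L-JAG1 Teff arrays, at 6.81 and 6.35, where Foxp3 was 0.92 ± 0.21 (SE) above control Teff cells (adjusted p = 0.00448). These 2 arrays stood apart in other ways. Their replicates correlated at 0.881 over all genes, against 0.984 to 0.994 in the other groups, and their levels spread less over genes (SD 1.49 and 1.71, against 1.95 to 2.19). Their medians were 5.12 and 5.17, against 4.91 on both control Teff arrays, and the median difference of all genes from control Teff cells was 0.18. The 6 measured T cell markers (of 8 listed) had a mean level of 8.95 and 9.67 there, against 10.93 to 10.97 in control Teff cells and 10.09 to 10.11 in a-CD3-CD28 Teff cells. The 8 neutrophil markers had a mean level of 7.39 and 8.61, against 5.19 to 5.24 in control Teff cells, and all 8 had a group mean above the lowest array median of 4.87. They did not move as one: 6 rose (background 20%) and 1, Mpo, fell from 7.75 to 5.89 (background 26.9%). Elane was also lower, at 6.59 against 7.65, without a call. The 8 basophil and mast cell markers (6.32 and 7.55, against 4.95 to 4.97) and 10 myeloid and dendritic cell markers (5.53 and 5.88, against 4.58 to 4.66) also had higher means. Of the basophil and mast cell markers 5 rose (background 20%) and 1, Kit, fell from 6.96 to 5.56 (background 26.9%). Of the myeloid and dendritic cell markers 6 rose and 0 fell, against the same backgrounds. In OX40L-JAG1 Treg cells the neutrophil markers had a mean of 6.27 to 6.72, against 4.07 to 4.14 in control Treg cells, and the basophil and mast cell markers 5.86 to 5.95, against 3.90 to 4.04, while the T cell markers were at 10.50 to 10.58, against 10.56 to 10.74. The myeloid and dendritic cell markers were at 5.43 there, against 4.37 to 4.55. In these cells 4 neutrophil, 5 basophil and mast cell, and 2 myeloid and dendritic cell markers rose (background 0.996%). None of these 3 lists had a fall (background 0.559%). The 5 Treg markers had a mean of 6.63 to 7.25 in OX40L-JAG1 Teff cells and 8.38 to 8.55 in a-CD3-CD28 Teff cells, against 6.00 to 6.08 in control Teff cells and 10.2 to 11.3 on the Treg arrays. With anti-CD3-CD28 3 of them, Il2ra, Ctla4 and Lrrc32, rose in Teff cells (background 5.44%). Foxp3 was at 5.65 there, against 5.66, and Ikzf2 at 7.44, against 7.20, both without a call. With OX40L-JAG1 the same 3 and Foxp3 rose (4 of 5, background 20%). The 5 measured platelet and erythroid markers (of 8) had means from 4.65 to 5.69 on the control arrays and from 5.44 to 7.27 on the treated ones. In Treg cells 2 of the 5, Ppbp and Pf4, rose with OX40L-JAG1 (background 0.996%) and 1, Ppbp, with anti-CD3-CD28 (background 8.08%). None fell with either treatment in Treg cells (background 0.559% and 1.97%). In Teff cells 3 of the 5 rose with OX40L-JAG1 (background 20%) and 3 with anti-CD3-CD28 (background 5.44%). Car2 fell there, from 9.14 to 6.04 with OX40L-JAG1 and to 6.64 with anti-CD3-CD28. B cell markers (7 of 8 measured) had means between 4.49 and 5.61 and CD8 T and NK cell markers (7 of 8) between 5.21 and 6.04 on all arrays. With anti-CD3-CD28 5 of the 7 B cell markers fell in Teff cells (background 9.75%), to means of 4.79 to 4.82. In control Treg cells 4 of them were lower than in control Teff cells (background 2.51%). The CD8 T and NK cell means were 5.21 to 5.53 in control Treg and 6.02 to 6.04 in control Teff cells, with Klrd1 called as lower (1 of 7, background 2.51%). With OX40L-JAG1 Cd8b1, Nkg7 and Eomes fell in Teff cells (3 of 7, background 26.9%) and Nkg7 in Treg cells (1 of 7, background 0.559%). None of this list rose with it (background 20% and 0.996%). With anti-CD3-CD28 Cd8a rose in Teff cells (1 of 7, background 5.44%) and none fell (background 9.75%). In bulk RNA, fewer cells of a type and less RNA per cell cannot be told apart. The part of these shifts in the differences below was not tested. The OX40L-JAG1 Teff arrays also enter the shared estimate of the spread. Where a call of a member changes without them, both results are given.

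**Figure D1:**
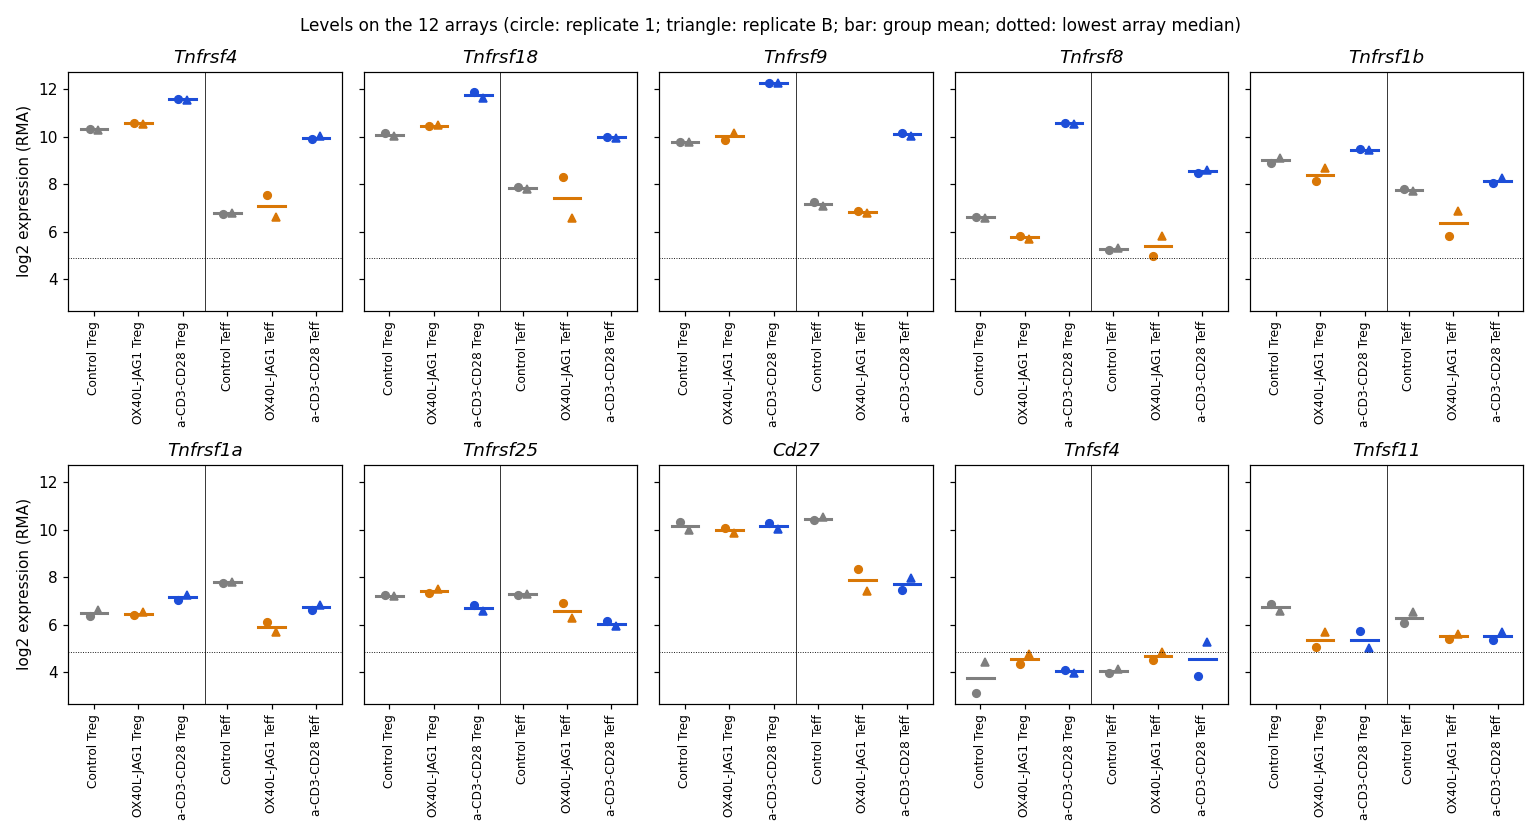
Log2 level (vertical axis) of the 10 genes on the 12 arrays, by group (horizontal axis); circles are replicate 1, triangles replicate B, bars the group means, and the dotted line the lowest array median (4.87). Tnfrsf4, Tnfrsf18, Tnfrsf9 and Tnfrsf8 are highest in a-CD3-CD28 Treg cells, and Tnfsf4 has every group mean below the dotted line.

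OX40L-JAG1 left most of the 10 genes in Treg cells without a detected change. None rose, against a background of 0.996%, and 1 fell, Tnfsf11, against a background of 0.559%. Anti-CD3-CD28 moved 5 of the 10 in Treg cells: Tnfrsf4, Tnfrsf18, Tnfrsf9 and Tnfrsf8 rose (4 of 10, background 8.08%) and Tnfsf11 fell (1 of 10, background 1.97%). In Teff cells the same 4 receptors rose with anti-CD3-CD28 (4 of 10, background 5.44%), and Tnfrsf25, Tnfrsf1a and Cd27 fell (3 of 10, background 9.75%). With OX40L-JAG1 in Teff cells none rose (background 20%) and 5 fell, namely Tnfrsf1b, Tnfrsf1a, Tnfrsf25, Cd27 and Tnfsf11 (background 26.9%). Before adjustment, a limma p under 0.05 was reached in OX40L-JAG1 Treg cells by 0 members as higher and 2 as lower, and in OX40L-JAG1 Teff cells by 0 and 5. Comparisons that share a control group are not independent of each other.

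**Figure D2:**
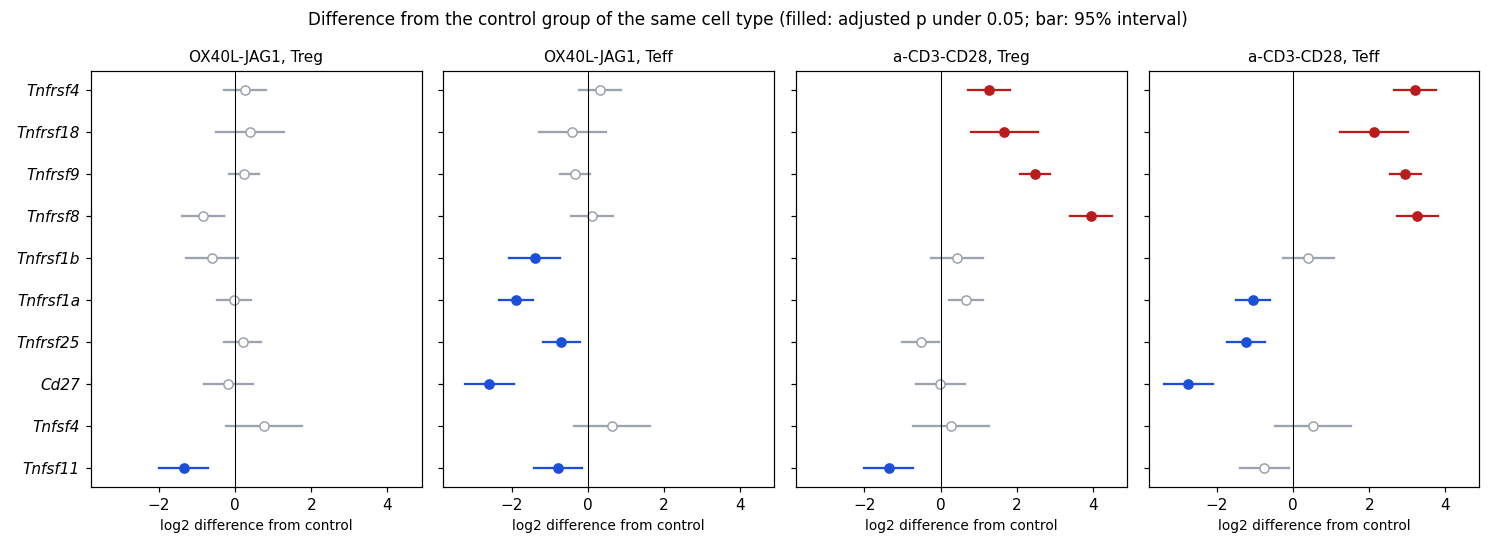
Log2 difference from the control group of the same cell type (horizontal axis) with its 95% interval for each of the 10 genes, by treatment and cell type; filled points have an adjusted p under 0.05, red higher and blue lower. The 4 filled red points in each a-CD3-CD28 panel are Tnfrsf4, Tnfrsf18, Tnfrsf9 and Tnfrsf8, and neither OX40L-JAG1 panel has a filled red point.

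Tnfrsf4 encodes OX40, the receptor for the OX40L given in culture. Its level was 10.32 and 10.28 on the control Treg arrays, 10.57 and 10.54 with OX40L-JAG1, and 11.60 and 11.55 with anti-CD3-CD28. In Teff cells it was 6.76 and 6.76 in control cells, 7.52 and 6.62 with OX40L-JAG1, and 9.91 and 10.01 with anti-CD3-CD28. Every Treg array lay above every Teff array, and among Teff cells the a-CD3-CD28 arrays were far above the rest. The rise with anti-CD3-CD28 was 3.20 ± 0.25 in Teff cells (9.17-fold, adjusted p = 1.75e-05) and 1.27 ± 0.25 in Treg cells (2.41-fold, adjusted p = 0.00728). The Treg response was smaller by 1.93 ± 0.36 (adjusted p = 0.0065). With OX40L-JAG1 the difference in Treg cells was 0.25 (95% interval -0.30 to 0.81, adjusted p = 0.885), and both treated arrays lay above both control arrays. In Teff cells it was 0.31 (-0.24 to 0.87, adjusted p = 0.316), with replicate 1 above and replicate B below the control arrays. After quantile normalization of the log2 values the Teff difference was 1.26 (adjusted p = 0.00101), so the call for OX40 in OX40L-JAG1 Teff cells depends on the scaling. The rise in Treg cells with anti-CD3-CD28 lost its call when any of the 4 control or a-CD3-CD28 Treg arrays was left out, with a highest adjusted p of 0.0682.

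Tnfrsf18 encodes GITR, which lies next to Tnfrsf4 on chromosome 4 in the assembly GRCm38.p6. Control Treg arrays had 10.14 and 10.01, OX40L-JAG1 Treg arrays 10.43 and 10.50, and a-CD3-CD28 Treg arrays 11.88 and 11.63. Control Teff arrays had 7.88 and 7.80, OX40L-JAG1 Teff arrays 8.28 and 6.57, and a-CD3-CD28 Teff arrays 9.99 and 9.95. The a-CD3-CD28 arrays were the highest of each cell type, and the OX40L-JAG1 Teff arrays fell on either side of control. GITR rose with anti-CD3-CD28 by 1.68 ± 0.40 in Treg cells (3.20-fold, adjusted p = 0.0217) and by 2.13 ± 0.40 in Teff cells (4.37-fold, adjusted p = 0.00431). The Treg call was lost when any of the 4 arrays compared was left out (highest adjusted p = 0.158). The OX40L-JAG1 difference was 0.39 in Treg cells (-0.50 to 1.27, adjusted p = 0.894) and -0.41 in Teff cells (-1.30 to 0.47, adjusted p = 0.405). The Teff value rests on the replicate taken: without replicate 1 it passed the test as a fall (adjusted p = 9.95e-05), and after quantile normalization it was 0.58 and did not pass (adjusted p = 0.228). A further row that names Tnfrsf18 together with another gene was left out of the test. Its group means were 4.57, 4.69 and 5.56 for control, OX40L-JAG1 and a-CD3-CD28 Teff cells and 5.78, 5.86 and 6.34 for the Treg groups, which again placed a-CD3-CD28 highest in each cell type.

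Tnfrsf9 encodes CD137, a costimulatory receptor raised on activated T cells. In Treg cells it measured 9.78 and 9.79 in control cells, 9.86 and 10.17 with OX40L-JAG1, and 12.26 and 12.27 with anti-CD3-CD28. In Teff cells it measured 7.23 and 7.07 in control cells, 6.87 and 6.77 with OX40L-JAG1, and 10.16 and 10.04 with anti-CD3-CD28. Replicates lay close together and the a-CD3-CD28 arrays did not overlap with any other group of their cell type. The rise was 2.48 ± 0.18 in Treg cells (5.57-fold, adjusted p = 1.09e-05) and 2.95 ± 0.18 in Teff cells (7.74-fold, adjusted p = 4.03e-06), and both calls stood in all 12 fits with 1 array left out. With OX40L-JAG1 the difference was 0.23 in Treg cells (-0.17 to 0.63, adjusted p = 0.814) and -0.33 in Teff cells (-0.73 to 0.07, adjusted p = 0.149). Scaled to a common median, the Teff difference was -0.57 and passed the test (adjusted p = 0.0335), while after quantile normalization it was 0.65 and did not (adjusted p = 0.0532).

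Tnfrsf8 encodes CD30, another receptor raised on activated T cells, and neighbours Tnfrsf1b on chromosome 4. Its level was 6.63 and 6.56 in control Treg cells, 5.82 and 5.68 in OX40L-JAG1 Treg cells, and 10.55 and 10.55 in a-CD3-CD28 Treg cells. It was 5.22 and 5.32 in control Teff cells, 4.95 and 5.80 in OX40L-JAG1 Teff cells, and 8.46 and 8.61 in a-CD3-CD28 Teff cells. CD30 had the largest rise of the 10 genes in Treg cells with anti-CD3-CD28 and, beside Tnfrsf4, one of the largest in Teff cells. It was 3.96 ± 0.25 in Treg cells (15.5-fold, adjusted p = 5.62e-06) and 3.26 ± 0.25 in Teff cells (9.59-fold, adjusted p = 1.52e-05). It was also the member that separated the treatments most in Treg cells, where it was 4.80 ± 0.25 higher with anti-CD3-CD28 than with OX40L-JAG1 (27.9-fold, adjusted p = 4.00e-06). Under OX40L-JAG1 both Treg arrays lay below both control arrays, a difference of -0.84 ± 0.25 that did not pass over all 12 arrays (adjusted p = 0.169). Without the OX40L-JAG1 Teff arrays it did (adjusted p = 0.00523), which gave 0 members higher (background 3.4%) and 2 lower (background 2.01%) in that comparison. In Teff cells the OX40L-JAG1 difference was 0.11 (-0.44 to 0.65, adjusted p = 0.731), or -0.13 at a common median. Leaving out the same arrays in the comparison of Treg cells with anti-CD3-CD28 against control brought in Tnfrsf1a (adjusted p = 0.0108) and Tnfrsf25 (adjusted p = 0.0325), for 5 members higher (background 14.8%) and 2 lower (background 6.75%).

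The promoters of these 4 receptors are shown because the genes rose together with anti-CD3-CD28. RefSeq entries of the build GRCm38.p6 were matched for 9 of the 10 genes, and the 250 bases before each listed start were searched on both strands for 4 motifs: the NF-kappaB consensus, AP-1 (TGANTCA), RBPJ (TGGGAA), which is the DNA-binding partner of Notch, and an NFAT core (GGAAAA). Among 32851 promoters, 3.9% held the NF-kappaB consensus, 6.75% AP-1, 21.6% RBPJ and 20.4% the NFAT core. The sequences read 5′ to 3′ on the gene's strand, with capitals at matches to the first 3 motifs.
Tnfrsf4 (chr4:156013445-156013694, plus strand): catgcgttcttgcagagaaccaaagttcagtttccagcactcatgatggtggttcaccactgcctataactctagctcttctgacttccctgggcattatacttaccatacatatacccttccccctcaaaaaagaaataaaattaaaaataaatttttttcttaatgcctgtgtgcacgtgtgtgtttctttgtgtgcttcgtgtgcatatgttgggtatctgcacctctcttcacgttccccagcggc
Tnfrsf18 (chr4:156026072-156026321, plus strand): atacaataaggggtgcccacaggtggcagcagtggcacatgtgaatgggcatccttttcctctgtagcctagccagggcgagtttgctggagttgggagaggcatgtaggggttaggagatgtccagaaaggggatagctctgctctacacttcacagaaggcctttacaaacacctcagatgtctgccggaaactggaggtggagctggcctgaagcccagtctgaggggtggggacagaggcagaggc
Tnfrsf9, first listed start (chr4:150919905-150920154, plus strand): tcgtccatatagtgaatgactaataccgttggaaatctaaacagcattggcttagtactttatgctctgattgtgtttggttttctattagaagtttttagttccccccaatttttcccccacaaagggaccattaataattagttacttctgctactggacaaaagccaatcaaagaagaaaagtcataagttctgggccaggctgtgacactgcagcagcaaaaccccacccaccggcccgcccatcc
Tnfrsf9, second listed start (chr4:150927749-150927998, plus strand): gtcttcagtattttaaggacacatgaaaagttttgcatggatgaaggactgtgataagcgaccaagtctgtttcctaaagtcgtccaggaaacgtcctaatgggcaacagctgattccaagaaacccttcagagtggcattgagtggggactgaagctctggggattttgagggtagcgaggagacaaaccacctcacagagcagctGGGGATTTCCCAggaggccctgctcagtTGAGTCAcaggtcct
Tnfrsf8 (chr4:145315165-145315414, minus strand): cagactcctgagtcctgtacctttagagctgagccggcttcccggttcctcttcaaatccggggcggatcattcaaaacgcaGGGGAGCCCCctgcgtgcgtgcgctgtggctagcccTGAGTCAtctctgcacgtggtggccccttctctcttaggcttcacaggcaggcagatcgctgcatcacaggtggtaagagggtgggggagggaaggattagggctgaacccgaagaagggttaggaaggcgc

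The Tnfrsf8 window held an NF-kappaB match beginning 168 bases before the start and an AP-1 match at 132. The second Tnfrsf9 window held overlapping NF-kappaB matches at 43 and 42 bases, an RBPJ match at 37 that overlaps them, and an AP-1 match at 15. The AP-1 motif reads the same on both strands, so each of these matches was found on both. The windows of Tnfrsf4, Tnfrsf18 and the first start of Tnfrsf9 held none of these 3 motifs. Single NFAT cores lay in the windows of Tnfrsf18 (196 bases before the start), Tnfrsf9 (138, first start), Tnfrsf25 (218, first start) and Cd27 (52). No motif was found in the windows of Tnfrsf1b, Tnfrsf1a and Tnfsf11. A match is only a run of letters, and a window without one covers only these 250 bases.

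Tnfrsf1b encodes TNFR2, a TNF receptor without a death domain that is prominent on Treg cells. Control Treg arrays had 8.90 and 9.12, OX40L-JAG1 Treg arrays 8.12 and 8.67, and a-CD3-CD28 Treg arrays 9.46 and 9.42. Control Teff arrays had 7.79 and 7.71, OX40L-JAG1 Teff arrays 5.83 and 6.87, and a-CD3-CD28 Teff arrays 8.02 and 8.27. In both cell types the OX40L-JAG1 arrays were the lowest and the a-CD3-CD28 arrays the highest, without overlap. TNFR2 fell by 1.40 ± 0.31 with OX40L-JAG1 in Teff cells (2.63-fold, adjusted p = 0.00385), which was not called after quantile normalization (-0.52, adjusted p = 0.498) or with only the 4 arrays compared (adjusted p = 0.0723). Its replicates differed more there than in other groups, and the difference was -1.92 without replicate B and -0.88 without replicate 1 of OX40L-JAG1 Teff cells. The Treg difference was -0.61 (-1.28 to 0.07, adjusted p = 0.576). With anti-CD3-CD28 the differences were 0.43 in Treg cells (-0.24 to 1.11, adjusted p = 0.475) and 0.40 in Teff cells (-0.27 to 1.08, adjusted p = 0.453).

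Tnfrsf1a encodes TNFR1, the death domain receptor for TNF. It measured 6.38 and 6.62 in control Treg cells, 6.41 and 6.53 with OX40L-JAG1, and 7.05 and 7.27 with anti-CD3-CD28. In Teff cells it measured 7.75 and 7.81 in control cells, 6.10 and 5.70 with OX40L-JAG1, and 6.64 and 6.83 with anti-CD3-CD28. Control Teff arrays were the highest of all, and both treatments lay below them. The fall in Teff cells was 1.88 ± 0.20 with OX40L-JAG1 (3.68-fold, adjusted p = 6.64e-05) and 1.05 ± 0.20 with anti-CD3-CD28 (2.07-fold, adjusted p = 0.0048), the latter lost without replicate B of the control Teff group (adjusted p = 0.0538). In Treg cells the differences were -0.03 with OX40L-JAG1 (-0.48 to 0.41, adjusted p = 0.993) and 0.66 with anti-CD3-CD28 (0.22 to 1.10, adjusted p = 0.0648). The responses of the cell types differed, with Treg minus Teff at 1.85 ± 0.29 for OX40L-JAG1 (adjusted p = 0.00106) and 1.71 ± 0.29 for anti-CD3-CD28 (adjusted p = 0.00408).

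Tnfrsf25 encodes DR3, the death domain receptor for TL1A. Its Treg levels were 7.26 and 7.20 in control cells, 7.36 and 7.50 with OX40L-JAG1, and 6.84 and 6.58 with anti-CD3-CD28. Its Teff levels were 7.27 and 7.30 in control cells, 6.90 and 6.28 with OX40L-JAG1, and 6.15 and 5.94 with anti-CD3-CD28. The a-CD3-CD28 arrays were the lowest in each cell type and did not overlap with control. DR3 fell in Teff cells by 1.24 ± 0.22 with anti-CD3-CD28 (2.37-fold, adjusted p = 0.0032). Its fall of 0.69 ± 0.22 with OX40L-JAG1 (adjusted p = 0.0257) became a rise of 0.18 after quantile normalization (adjusted p = 0.492), and was lost without either control Teff array or without replicate B of OX40L-JAG1 Teff (highest adjusted p = 0.116). In Treg cells the difference with anti-CD3-CD28 was -0.52 (-1.01 to -0.03, adjusted p = 0.196), and with OX40L-JAG1 it was 0.20 (-0.29 to 0.69, adjusted p = 0.907).

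Cd27 encodes CD27, the receptor for CD70, which naive T cells carry and which is known to be lost after prolonged stimulation. Treg levels were 10.33 and 9.98 in control cells, 10.09 and 9.86 with OX40L-JAG1, and 10.28 and 10.03 with anti-CD3-CD28. Teff levels were 10.40 and 10.55 in control cells, 8.33 and 7.44 with OX40L-JAG1, and 7.45 and 7.99 with anti-CD3-CD28. The 3 Treg groups overlapped, and the treated Teff groups overlapped with each other well below control. Cd27 fell in Teff cells by 2.59 ± 0.29 with OX40L-JAG1 (6.01-fold, adjusted p = 8.59e-05) and by 2.76 ± 0.29 with anti-CD3-CD28 (6.75-fold, adjusted p = 0.000131). In Treg cells the intervals held 0, with -0.83 to 0.46 for OX40L-JAG1 (adjusted p = 0.953) and -0.65 to 0.64 for anti-CD3-CD28 (adjusted p = 0.999). Treg minus Teff responses were 2.40 ± 0.42 for OX40L-JAG1 (adjusted p = 0.00182) and 2.75 ± 0.42 for anti-CD3-CD28 (adjusted p = 0.00241), and both calls stood in all 12 fits with 1 array left out. Of the 6 measured T cell markers, 5 fell in Teff cells with OX40L-JAG1 (background 26.9%) and 3 with anti-CD3-CD28 (background 9.75%). None rose in either. Cd3d went the other way with anti-CD3-CD28, from 9.75 to 10.54. It was called as higher without the OX40L-JAG1 Teff arrays (1 of 6, background 12.5%). Cd4 fell by 2.55 ± 0.22 with OX40L-JAG1 (adjusted p = 2.97e-05) and by 1.97 ± 0.22 with anti-CD3-CD28 (adjusted p = 0.000179), and Cd3e by 2.13 ± 0.18 (adjusted p = 3.08e-05) and 1.30 ± 0.18 (adjusted p = 0.000787). Their part in the falls of Cd27, Tnfrsf1a, Tnfrsf1b and Tnfrsf25 was not tested.

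The ligands among the members are Tnfsf4 and Tnfsf11. Tnfsf4, which encodes OX40L itself, had group means between 3.78 and 4.69, all below the lowest array median of 4.87, and its 12 arrays ran from 3.13 to 5.27. The highest array was replicate B of a-CD3-CD28 Teff cells, whose replicate 1 was at 3.86. Its values are those of a dim gene in every group, and it was called in none of the 9 comparisons of 2 groups. Tnfsf11 encodes RANKL, the ligand of RANK. Its level was 6.87 and 6.60 in control Treg cells, 5.08 and 5.69 with OX40L-JAG1, and 5.73 and 5.03 with anti-CD3-CD28. Its Teff levels were 6.06 and 6.52 in control cells, 5.42 and 5.61 with OX40L-JAG1, and 5.36 and 5.71 with anti-CD3-CD28. The control arrays were the highest of each cell type in every case. The falls in Treg cells were close in size, 1.35 ± 0.29 with OX40L-JAG1 (2.55-fold, adjusted p = 0.0466) and 1.36 ± 0.29 with anti-CD3-CD28 (2.56-fold, adjusted p = 0.0118). The 95% interval of the difference between the treatments was -0.65 to 0.64 (adjusted p = 0.997). The first call was lost in 10 of the 12 fits with 1 array left out, all but those without an OX40L-JAG1 Teff array (adjusted p from 0.0125 to 0.340), and the second without either control Treg array or without replicate B of a-CD3-CD28 Treg (highest 0.149). In Teff cells the fall was 0.78 ± 0.29 with OX40L-JAG1 (adjusted p = 0.0463), lost in 7 of 12 such fits (highest 0.262), and the difference with anti-CD3-CD28 was -0.76 ± 0.29 (adjusted p = 0.113).

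The treatments were also compared directly. In Treg cells, Tnfrsf4 (1.02 ± 0.25, adjusted p = 0.0362), Tnfrsf9 (2.25 ± 0.18, adjusted p = 4.98e-05) and Tnfrsf8 were higher with anti-CD3-CD28 than with OX40L-JAG1 (3 of 10, background 4.73%), and none was lower (background 1.18%), or 1 at an unadjusted limma p under 0.05. The counts without the OX40L-JAG1 Teff arrays were 6 higher (background 9.89%) and 1 lower (background 4.01%). The additions were Tnfrsf18 (1.29, adjusted p = 0.000106), Tnfrsf1b (1.04, adjusted p = 0.00301) and Tnfrsf1a (0.69, adjusted p = 0.0116), which were higher, and Tnfrsf25 (-0.72, adjusted p = 0.00828). The Tnfrsf4 call was lost in 10 of the 12 fits with 1 array left out (highest adjusted p = 0.225). In Teff cells 6 were higher with anti-CD3-CD28 (background 18.9%) and none lower (background 9.15%), or 1 before adjustment. The largest was Tnfrsf9, 3.28 ± 0.18 higher (adjusted p = 2.42e-06), followed by Tnfrsf8 (3.16 ± 0.25), Tnfrsf4 (2.89 ± 0.25), Tnfrsf18 (2.54 ± 0.40), Tnfrsf1b (1.80 ± 0.31) and Tnfrsf1a (0.83 ± 0.20, adjusted p = 0.0115). Tnfrsf1a lost its call without replicate B of a-CD3-CD28 Teff (adjusted p = 0.0832). Tnfrsf1b and Tnfrsf1a were not called after quantile normalization (adjusted p = 0.171 and 0.0680). With only the 4 arrays compared, 3 calls stood, and Tnfrsf18, Tnfrsf1b and Tnfrsf1a were lost (adjusted p = 0.0765, 0.0840 and 0.194).

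Treg and Teff cells differed in most of these receptors before any treatment. In fresh cells 5 of the 10 were higher in Treg cells (background 1.34%) and 1 was lower (background 2.51%). Tnfrsf4 was 3.54 ± 0.25 higher (11.7-fold, adjusted p = 1.94e-05), Tnfrsf9 2.63 ± 0.18 (6.21-fold, adjusted p = 1.53e-05), Tnfrsf18 2.24 ± 0.40 (4.72-fold, adjusted p = 0.00988), Tnfrsf8 1.32 ± 0.25 (2.50-fold, adjusted p = 0.0124) and Tnfrsf1b 1.26 ± 0.31 (2.40-fold, adjusted p = 0.0456). Tnfrsf1a was 1.28 ± 0.20 lower in Treg than in Teff cells, a log2 difference of -1.28 (adjusted p = 0.00456). Tnfrsf8 and Tnfrsf1b were not called after quantile normalization (adjusted p = 0.126 and 0.239). Tnfrsf18 and Tnfrsf8 lost their calls when any of the 4 control arrays was left out (highest adjusted p = 0.100 and 0.137), Tnfrsf1a without either control Teff array or replicate 1 of control Treg (0.0666), and Tnfrsf1b in 10 of 12 such fits (0.302), all but those without an OX40L-JAG1 Teff array.

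After anti-CD3-CD28, 6 were higher in Treg cells (background 9.03%) and none lower (background 2.89%), with 0 lower at an unadjusted limma p under 0.05 as well. These were Tnfrsf4 (1.61 ± 0.25, 3.06-fold, adjusted p = 0.0025), Tnfrsf18 (1.79 ± 0.40, adjusted p = 0.0158), Tnfrsf9 (2.16 ± 0.18, adjusted p = 4.35e-05), Tnfrsf8 (2.02 ± 0.25, adjusted p = 0.000599), Tnfrsf1b (1.29 ± 0.31, adjusted p = 0.0199) and Cd27 (2.44 ± 0.29, adjusted p = 0.000541). Tnfrsf18 and Tnfrsf1b lost their calls when any of the 4 arrays was left out (highest adjusted p = 0.122 and 0.149), and Tnfrsf1b also after quantile normalization (0.398). Tnfrsf25 joined them without the OX40L-JAG1 Teff arrays (0.67, adjusted p = 0.00827), for 7 higher (background 18.2%) and 0 lower (background 10.4%). After OX40L-JAG1, 7 were higher in Treg cells (background 24.6%) and none lower (background 16.5%). At an unadjusted limma p under 0.05 none was lower either. The 7 were Tnfrsf4 (3.48 ± 0.25), Tnfrsf9 (3.19 ± 0.18), Tnfrsf18 (3.04 ± 0.40), Cd27 (2.09 ± 0.29), Tnfrsf1b (2.05 ± 0.31), Tnfrsf25 (0.84 ± 0.22) and Tnfrsf1a (0.57 ± 0.20). Tnfrsf1b, Tnfrsf1a and Tnfrsf25 were not called after quantile normalization (adjusted p = 0.127, 0.517 and 0.891). Tnfrsf1a also lost its call in 11 of 12 fits with 1 array left out (highest 0.175), all but the fit without replicate 1 of OX40L-JAG1 Teff, and Tnfrsf25 without replicate B of OX40L-JAG1 Treg (0.0801).

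**Figure D3:**
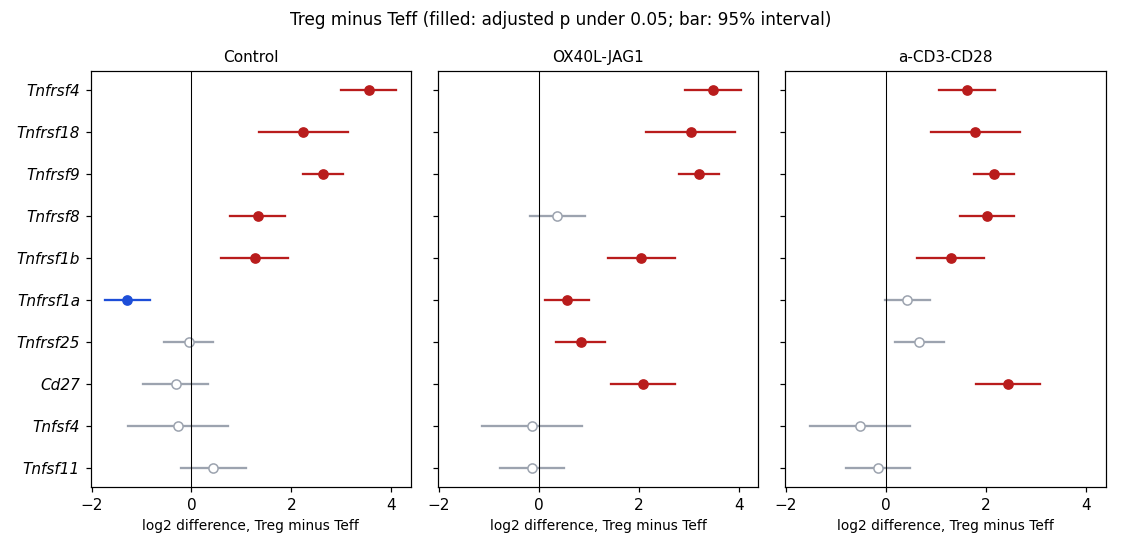
Log2 difference between Treg and Teff cells (horizontal axis, positive is higher in Treg cells) with its 95% interval for each of the 10 genes in control, OX40L-JAG1 and a-CD3-CD28 cells; filled points have an adjusted p under 0.05. Tnfrsf4 goes from 3.54 in control cells to 1.61 with anti-CD3-CD28, and Cd27 from -0.32 to 2.44.

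Tests of the difference between the Treg and the Teff response were made for each treatment. For OX40L-JAG1, 2 members had a higher response in Treg cells (background 21.3%), Tnfrsf1a and Cd27, and none a lower one (background 10.2%), or 1 at an unadjusted limma p under 0.05. For anti-CD3-CD28, Tnfrsf1a and Cd27 again had the higher response in Treg cells (2 of 10, background 10.1%), and Tnfrsf4 the lower (1 of 10, background 2.94%). Tnfrsf8 (0.69, adjusted p = 0.0240) and Tnfrsf25 (0.72, adjusted p = 0.0280) joined the higher ones without the OX40L-JAG1 Teff arrays, 4 of 10 against a background of 20%, and the lower count was 1 against 11%. For Tnfrsf18 and Tnfrsf9 the difference of the anti-CD3-CD28 responses was -0.45 (-1.70 to 0.80, adjusted p = 0.639) and -0.47 (-1.04 to 0.09, adjusted p = 0.252). For OX40L-JAG1 and Tnfrsf4 it was -0.06 (-0.84 to 0.72, adjusted p = 0.904), and -1.05 after quantile normalization (adjusted p = 0.0211).

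Across the 12 arrays Tnfrsf4, Tnfrsf18 and Tnfrsf9 had like patterns, with Pearson r of 0.975 for Tnfrsf4 and Tnfrsf18, 0.964 for Tnfrsf4 and Tnfrsf9, and 0.967 for Tnfrsf18 and Tnfrsf9. Tnfrsf8 followed them less closely (0.707 to 0.845), and Tnfrsf25 and Cd27 reached 0.812 with each other. These values describe 12 arrays in 6 groups and carry no test. Among 8433 genes whose group means span at least 1, the patterns most like Tnfrsf4 were those of Il2ra (r = 0.994), the high-affinity IL-2 receptor chain, Ctla4 (0.989), an inhibitory receptor, and Cish (0.981), an inhibitor of cytokine signalling. For Tnfrsf18 they were Gbp3 (0.981), Gadd45b (0.976) and Tnfrsf4, for Tnfrsf9 Neb (0.980), Cish (0.977) and Stx11 (0.976), and for Tnfrsf8 Morrbid (0.987), Hip1 (0.974) and Stc1 (0.973). Cd27 was most like Rbck1 (0.979), Rab37 (0.978) and Scamp3 (0.978). Tnfsf11 had weaker likenesses, to Rhob (0.857), Dhrs3 (0.857) and Tsc22d3 (0.854). Those of the dim Tnfsf4 were Kctd16 (0.739), H2-Ea (0.729) and Unc45bos (0.714).

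The rest of the pathway was followed in 4 lists. Of 20 other TNF receptors, 2 rose (background 0.996%) and none fell (background 0.559%, and 0 before adjustment by limma) with OX40L-JAG1 in Treg cells: Tnfrsf23 (1.38 ± 0.23, adjusted p = 0.0126) and Tnfrsf26 (1.02 ± 0.17, adjusted p = 0.0136). Tnfrsf23 is known as a decoy receptor for TRAIL. Fas, a death receptor, joined them without the OX40L-JAG1 Teff arrays, for 3 of 20 (background 3.4%), and after quantile normalization 1 was higher (background 0.721%) and 0 were lower (background 0.528%). With anti-CD3-CD28, Tnfrsf23 (2.53 ± 0.23, adjusted p = 4.01e-05) and the death receptor Tnfrsf10b (1.11 ± 0.19, adjusted p = 0.00285) rose in Treg cells, 2 of 20 against a background of 8.08%. The same 2 genes rose in Teff cells (1.21 ± 0.23, adjusted p = 0.00501, and 0.99 ± 0.19, adjusted p = 0.00463, background 5.44%), where Tnfrsf22 fell by 0.95 ± 0.27 (adjusted p = 0.0378, 1 of 20, background 9.75%). Tnfrsf14 and Relt joined the falls without the OX40L-JAG1 Teff arrays, for 3 of 20 (background 16.5%). With OX40L-JAG1 in Teff cells 3 of 20 rose (background 20%) and 2 fell (background 26.9%), so neither count was above the share of all genes. Those that rose include Tnfrsf11a (0.94 ± 0.24, adjusted p = 0.00793), which encodes RANK, and the lymphotoxin beta receptor Ltbr (0.79 ± 0.23, adjusted p = 0.0177), and those that fell were Tnfrsf22 (by 1.14 ± 0.27, adjusted p = 0.00622) and Relt (by 0.91 ± 0.19, adjusted p = 0.00337). After quantile normalization these counts were 6 (background 9.1%) and 2 (background 12.6%). The list medians were 0.16 and -0.07 for OX40L-JAG1 and anti-CD3-CD28 in Treg cells, and 0.09 and -0.09 in Teff cells. The medians of all genes were -0.01, -0.05, 0.18 and 0.07 in the same order.

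Of 14 measured ligands (of 16 listed), none rose (background 0.996%) or fell (background 0.559%) with OX40L-JAG1 in Treg cells. At a limma p under 0.05 before adjustment, 1 was higher and 2 were lower. With the OX40L-JAG1 Teff arrays left out, Ltb, the lymphotoxin beta subunit, rose (1 of 14, background 3.4%) and Fasl and Cd40lg fell (2 of 14, background 2.01%), and after quantile normalization 1 was called as higher (background 0.721%). Anti-CD3-CD28 raised Fasl (1.08 ± 0.28, adjusted p = 0.0333), the ligand of Fas, and Tnfsf10 (0.93 ± 0.23, adjusted p = 0.0226), which encodes TRAIL, and Lta fell by 0.69 ± 0.19 (adjusted p = 0.0441). These are 2 of 14 higher (background 8.08%) and 1 lower (background 1.97%). Tnfsf18 and Cd40lg joined Lta without the OX40L-JAG1 Teff arrays, for 2 higher (background 14.8%) and 3 lower (background 6.75%). After quantile normalization none was called as higher (background 4.53%) and 2 as lower (background 2.35%). In Teff cells it raised Tnfsf9 (1.41 ± 0.25, adjusted p = 0.00328), the ligand of CD137, and Tnfsf13b (1.06 ± 0.21, adjusted p = 0.00504), which encodes BAFF, and Ltb fell by 0.82 ± 0.21 (adjusted p = 0.0221), 2 of 14 higher (background 5.44%) and 1 lower (background 9.75%). Cd40lg joined Ltb without the OX40L-JAG1 Teff arrays, for 2 lower (background 16.5%). OX40L-JAG1 in Teff cells gave 2 higher (background 20%) and 8 lower (background 26.9%), and 0 (background 9.1%) and 2 (background 12.6%) after quantile normalization. The largest falls were Tnfsf10 (by 1.45, adjusted p = 0.000499), Cd40lg (by 1.23, adjusted p = 0.00739), Fasl (by 1.13, adjusted p = 0.00816) and Tnfsf8, the ligand of CD30 (by 1.03, adjusted p = 0.0283). The list median was -0.69 there, against 0.18 for all genes, and -0.02, -0.19 and -0.23 in OX40L-JAG1 Treg, a-CD3-CD28 Treg and a-CD3-CD28 Teff cells.

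Adaptors and NF-kappaB genes carry the signal of these receptors. Of 20 measured (of 24 listed), 1 rose with OX40L-JAG1 in Treg cells (background 0.996%), Nfkb2 (1.36 ± 0.17, adjusted p = 0.00231), which encodes the p100 precursor of the noncanonical pathway. None fell (background 0.559%, and 0 before adjustment). Nfkbia, Traf1 and Birc2 joined Nfkb2 without the OX40L-JAG1 Teff arrays, for 4 of 20 (background 3.4%), and 2 rose after quantile normalization (background 0.721%). Nfkb2 was lower with anti-CD3-CD28 than with OX40L-JAG1 in Treg cells (-0.995 ± 0.17, adjusted p = 0.00459), while the IAP gene Birc3 was higher (0.79 ± 0.17, adjusted p = 0.0187), so that 1 of 20 was lower (background 1.18%) and 1 higher (background 4.73%). Rel, Nfkbia, Nfkbie, Traf1 and Relb joined Nfkb2 without the OX40L-JAG1 Teff arrays, for 6 lower (background 4.01%) and still 1 higher (background 9.89%). After quantile normalization 4 were lower (background 1.47%) and 0 higher (background 2.87%). Anti-CD3-CD28 raised Traf6 (0.83 ± 0.23, adjusted p = 0.042), Birc2 (0.79 ± 0.22, adjusted p = 0.0402) and Traf4 (0.78 ± 0.22, adjusted p = 0.0438) in Treg cells, 3 of 20 against a background of 8.08%, and none fell (background 1.97%, and 0 before adjustment). Cyld and Birc3 joined them without the OX40L-JAG1 Teff arrays, for 5 of 20 (background 14.8%). After quantile normalization none of the 20 was called in that comparison (background 4.53% higher and 2.35% lower). In Teff cells 1 rose, Birc2 (background 5.44%), and 7 fell with anti-CD3-CD28 (background 9.75%), the largest being the NF-kappaB subunits Rela (by 1.71 ± 0.19, adjusted p = 0.000179) and Rel (by 1.36 ± 0.21, adjusted p = 0.00131) and the adaptor Traf5, which binds OX40 (by 1.36 ± 0.22, adjusted p = 0.00159). Without the OX40L-JAG1 Teff arrays Nfkb2 joined the rises and Traf2 and Traf1 the falls, for 2 higher (background 12.5%) and 9 lower (background 16.5%). Quantile normalization gave 2 higher (background 5.11%) and 3 lower (background 6.45%). With OX40L-JAG1 in Teff cells 17 of 20 fell (background 26.9%) and none rose (background 20%, and 0 before adjustment), with Rel (by 1.84 ± 0.21, adjusted p = 8.89e-05) and the NF-kappaB inhibitor Tnfaip3 (by 1.77 ± 0.24, adjusted p = 0.000224) first. After quantile normalization 2 were higher (background 9.1%) and 5 lower (background 12.6%) there, so the count depends on the scaling. The list median was -1.17 there, against 0.18 for all genes, and -0.31 with anti-CD3-CD28. It was 0.37 and 0.27 in Treg cells with OX40L-JAG1 and anti-CD3-CD28. The response was higher in Treg than in Teff cells for 17 of 20 with OX40L-JAG1 (background 21.3%) and for 5 of 20 with anti-CD3-CD28 (background 10.1%). It was lower for none in either (background 10.2% and 2.94%), and for 0 before adjustment. The higher counts were 6 (background 6.66%) and 1 (background 2.75%) after quantile normalization, and the lower counts 0 (background 4.12%) and 0 (background 2.08%). Without the OX40L-JAG1 Teff arrays, Map3k14 and Traf1 joined the anti-CD3-CD28 count, for 7 of 20 (background 20%). Markers of T cells and of myeloid cells shifted in the same OX40L-JAG1 Teff arrays, as given above, and their part was not tested.

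Of 8 costimulatory and inhibitory receptors outside the family, none passed with OX40L-JAG1 in Treg cells (background 0.996% higher and 0.559% lower), and before adjustment a limma p under 0.05 was reached by 0 as higher and 2 as lower. Slamf1 and Pdcd1 fell once the OX40L-JAG1 Teff arrays were left out (2 of 8, background 2.01%). Anti-CD3-CD28 raised Icos (1.93 ± 0.23, adjusted p = 0.000247) and Ctla4 (1.23 ± 0.23, adjusted p = 0.00526) in Treg cells, while Btla fell by 1.86 ± 0.24 (adjusted p = 0.000376) and Cd226 by 1.45 ± 0.30 (adjusted p = 0.0103), 2 of 8 in each direction (background 8.08% higher and 1.97% lower). Without the OX40L-JAG1 Teff arrays Cd28 and Cd2 joined the rises, for 4 of 8 (background 14.8%), and Pdcd1 the falls, for 3 of 8 (background 6.75%). The same 4 genes moved in the same directions in Teff cells, Ctla4 by 3.73 ± 0.23 (adjusted p = 4.03e-06) and Icos by 1.93 ± 0.23 (adjusted p = 0.000259), again 2 of 8 higher (background 5.44%) and 2 lower (background 9.75%), with Cd28 joining the falls without those arrays, for 3 of 8 (background 16.5%). Ctla4, like Tnfrsf4, had the smaller response in Treg cells (-2.51 ± 0.33, adjusted p = 0.00118). OX40L-JAG1 in Teff cells gave 1 of 8 higher (background 20%), Ctla4 (0.64 ± 0.23, adjusted p = 0.0422), and 5 lower (background 26.9%), with Btla (by 2.13 ± 0.24, adjusted p = 7.56e-05) first. After quantile normalization 2 were higher (background 9.1%) and 2 lower (background 12.6%).

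**Figure D4:**
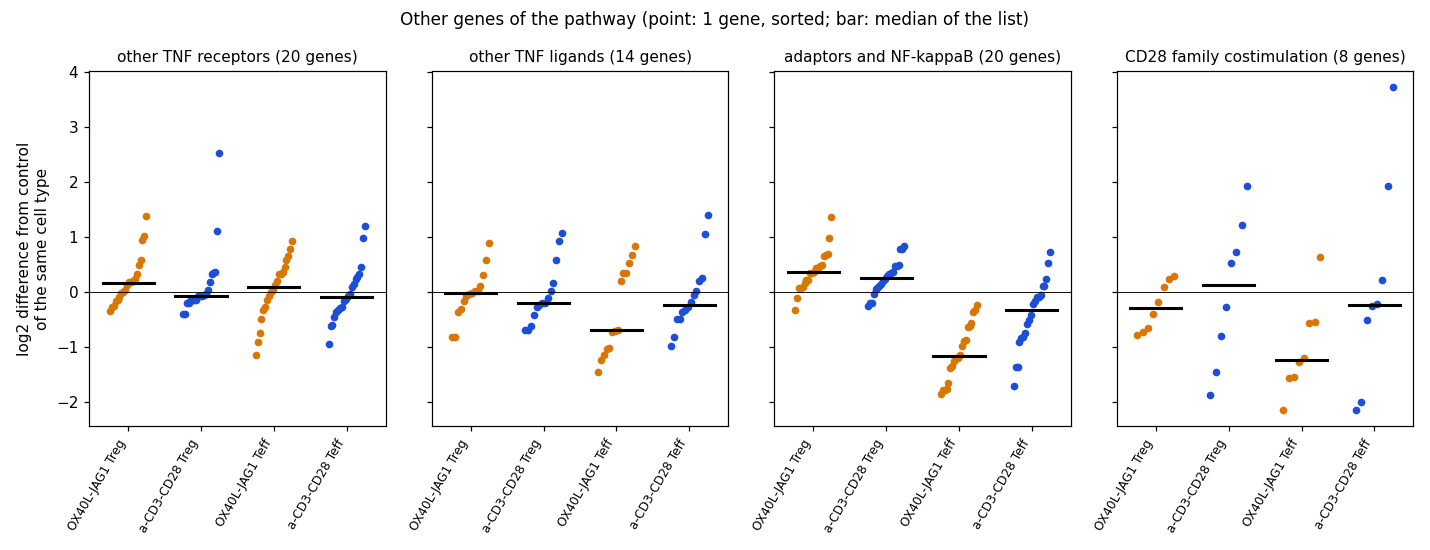
Log2 difference from the control group of the same cell type (vertical axis) for the measured genes of 4 lists, by treated group (horizontal axis); each point is 1 gene and each bar the list's median. The adaptor and NF-kappaB genes have a median of 0.37 in OX40L-JAG1 Treg cells and -1.17 in OX40L-JAG1 Teff cells.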

How the data were processed

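Total RNA of 6 groups of sorted cells was hybridised to 12 arrays of the Affymetrix Mouse Gene 2.0 ST type, each holding a single sample. The deposited values are log2 intensities that the authors summarised with RMA, per the submitters' processing notes; its version and the annotation build are not given in the sources used here. The values were used as deposited. Of 41345 rows, 23521 name exactly 1 gene; the 1814 rows with several symbols and the 16010 with none were left out. For the 1082 genes with several rows the brightest row on average was kept, giving 22180 genes.

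limma 3.58.1 in R 4.3.3 fitted the 6 group means to all 12 arrays together, with 6 residual degrees of freedom and moderated variances (eBayes). From it came 9 comparisons of 2 groups and 2 interactions, with two-sided Benjamini-Hochberg adjusted p-values over all genes within a comparison and a threshold of 0.05. Intervals are at 95%. The procedure was tested on simulated data. The members and lists were chosen with earlier results of these data known. Genes named besides the 10 members are Foxp3, Cd4 and Cd3e, up to 4 called genes of each list with the largest change in a comparison, the genes that join a list's calls once the OX40L-JAG1 Teff arrays are left out (chosen after their values were seen), and the 3 genes most like a member over the 12 arrays. Marker lists of T cells, Treg cells, B cells, myeloid and dendritic cells, neutrophils, basophils and mast cells, CD8 T and NK cells, and platelets and erythroid cells were set beside the results. Promoter sequences are from RefSeq, build GRCm38.p6; Tnfsf4 has no entry among those used. Alternatives were a replicate block, dim genes left out, trend and robust shrinkage, quantile normalization, array weights, scaling of each array to a shared median, averaging of a gene's rows, only the arrays compared, the OX40L-JAG1 Teff arrays left out, each array left out, and a change of at least 0.5.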

Additional observations from a re-analysis of the deposited data

Results flagged for a closer look

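For 3 genes the response differed between Treg and Teff cells by a test of the interaction in limma. With OX40L-JAG1, 2 of 10 members had the higher response in Treg cells, which was not above the background of 21.3%. With anti-CD3-CD28, 2 of 10 had the higher response (background 10.1%) and 1 of 10 the lower (background 2.94%). For OX40L-JAG1, Treg minus Teff was 1.85 ± 0.29 (SE) for Tnfrsf1a (adjusted p = 0.00106) and 2.40 ± 0.42 for Cd27 (adjusted p = 0.00182). For anti-CD3-CD28 it was -1.93 ± 0.36 for Tnfrsf4 (adjusted p = 0.0065), 1.71 ± 0.29 for Tnfrsf1a (adjusted p = 0.00408) and 2.75 ± 0.42 for Cd27 (adjusted p = 0.00241). All these calls stood in each of the 12 fits with 1 array left out. With 2 arrays per group, no group was large enough to test for a sample far from the others. The T cell genes Cd4 and Cd3e moved in the direction of Tnfrsf1a and Cd27. Their Treg minus Teff values were 2.96 ± 0.31 and 2.20 ± 0.26 for OX40L-JAG1, and 2.17 ± 0.31 and 1.30 ± 0.26 for anti-CD3-CD28. Of the 6 measured T cell markers, 4 had the higher Treg response with each treatment (background 21.3% and 10.1%). None had the lower one (background 10.2% and 2.94%). Cd3d went the other way with anti-CD3-CD28, from 10.575 to 9.49 in Treg and from 9.75 to 10.54 in Teff cells. Without the OX40L-JAG1 Teff arrays it was called as lower (1 of 6, background 11%). The part of the T cell genes was not tested.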

How the results depend on the processing

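Of 51 calls of a member, 34 stood in every fit with 1 array left out, where a group left with 1 array is assumed to vary like the others. Calls over all genes moved too, so a moved count of members is not by itself a result about the members. Of 22180 genes, 345 were called for OX40L-JAG1 Treg against control Treg, 1010 with array weights and 107 for a change of at least 0.5. For a-CD3-CD28 Treg against OX40L-JAG1 Treg these were 1311, 3435 and 478, and for OX40L-JAG1 Teff against control Teff 10405, 4688 and 4018. Counts of the 10 members called that moved by over 1.5 times were these. For OX40L-JAG1 Treg against control Treg (1), the count was 0 with the replicate block, quantile normalization, a common median or a change of at least 0.5, 2 with array weights, only the arrays compared or no OX40L-JAG1 Teff arrays, and 0 to 2 with an array left out. For a-CD3-CD28 Treg against control Treg (5), it was 2 for a change of at least 0.5 and 2 to 7 with an array left out. For a-CD3-CD28 Treg against OX40L-JAG1 Treg (3), it was 5 without dim genes or after quantile normalization, 7 with array weights, only the arrays compared or no OX40L-JAG1 Teff arrays, and 2 to 7 with an array left out. For OX40L-JAG1 Teff against control Teff (5), it was 3 after quantile normalization, with array weights or for a change of at least 0.5, 2 with only the arrays compared, and 3 to 6 with an array left out. With only the arrays compared it was 3 for a-CD3-CD28 Teff against OX40L-JAG1 Teff (6) and 4 for OX40L-JAG1 Treg against OX40L-JAG1 Teff (7), which was also 4 after quantile normalization. Over all genes the first went from 6224 to 363, and the second from 9110 to 1079, or to 4013 after quantile normalization. For control Treg against control Teff (6), it was 2 for a change of at least 0.5 and 2 to 6 with an array left out. For the OX40L-JAG1 interaction (2), it was 4 without dim genes or at a common median, and 2 to 5 with an array left out. For the anti-CD3-CD28 interaction (3), it was 5 with array weights, only the arrays compared or no OX40L-JAG1 Teff arrays, and 3 to 5 with an array left out. Tnfrsf25 in OX40L-JAG1 Teff cells changed sign after quantile normalization, to 0.18 (adjusted p = 0.492). The causes were not tested. Of the single calls, a change of at least 0.5 ended 18, quantile normalization 11 besides Tnfrsf25, only the arrays compared 9, array weights 5 and a common median 2. The shrinkage and the removal of dim genes ended none. Averaged rows ended none, but each member has 1 row, so its values could not change. The fit without OX40L-JAG1 Teff arrays also ended none, but it cannot test the calls that use those arrays.

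Replicate labels do not pair the samples by any stated link, and the 15 correlations of replicate differences between groups ran from -0.0693 to 0.182. With the replicate block, 3 member calls were lost and 1 was gained. Lost were Tnfsf11 with OX40L-JAG1 in Treg cells (adjusted p = 0.0645) and in Teff cells (0.0532), and Tnfrsf1a between OX40L-JAG1 Treg and Teff cells (0.052). Over all genes, leaving out the OX40L-JAG1 Teff arrays moved the calls from 345 to 1200 for OX40L-JAG1 Treg against control Treg, from 2230 to 4770 for a-CD3-CD28 Treg, from 3369 to 6421 for a-CD3-CD28 Teff and from 853 to 3220 for control Treg against control Teff. Quantile normalization moved the OX40L-JAG1 Teff calls from 10405 to 4823. It moved the share of higher calls from 80.4% to 65.8% for a-CD3-CD28 Treg, from 80.1% to 66.2% for a-CD3-CD28 Treg against OX40L-JAG1 Treg, from 34.8% to 49.1% between control cells and from 77.5% to 56.9% for the anti-CD3-CD28 interaction. A common median moved it from 42.7% to 22.3% for OX40L-JAG1 Teff, from 59.9% to 79.3% between OX40L-JAG1 Treg and Teff cells and from 67.5% to 85.4% for the OX40L-JAG1 interaction. Signal over background limits Tnfsf4.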
